A study of Mus musculus with 4 samples.

Results

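Arc, the 3 Homer genes, the neuronal pentraxins Nptx1, Nptx2 and Nptxr, and Dlg4 encode proteins that adjust or hold glutamate receptors at synapses. All probe sets annotated to any of these 8 genes were taken, which gave 15 of the 22690 probe sets of the array. Of the 15, 14 passed a filter on low signal (a mean of at least 50 over the 4 arrays), as did 13422 probe sets in all, and each of the 8 genes kept at least 1 probe set. Total RNA of the mouse dentate gyrus (DG) was hybridized to Affymetrix mouse genome 430A 2.0 arrays, with 1 array for each of 4 pools. The pools came from sham-treated mice, mice given electroconvulsive stimulation (ECS, a seizure-inducing ear-clip current) 11 times, 4 times a week over 3 weeks, mice given water as vehicle for 28 days, and mice that drank the selective serotonin reuptake inhibitor fluoxetine for 28 days, with 22 mg/kg taken each day.

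The labels give the strain as C57Bl/6, and the study's methods name male C57BL/6J or C57BL/6N animals bought at 8 weeks of age. Sham mice were handled like ECS mice, without the shock, and the ECS was given under isoflurane. The fluoxetine solution held 0.2% saccharin, and the labels give water for the vehicle pool without saying whether saccharin was added. Per the methods, the DG was cut from hippocampal slices prepared for recordings. The sample labels give 6 h after the last session for the sham and ECS pools, whereas the methods give 24 h, so the interval is uncertain. The fluoxetine-treated mice had been selected for small frequency facilitation at the mossy fiber synapse (n = 3), the physiological sign that the study used for dematured granule cells (GCs). The fluoxetine pool therefore stands for the responders of that treatment. RNA of a group was put together before amplification, so no spread between mice was measured, no test was possible, and every difference below has no replicate check.

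Arc is an immediate early gene whose mRNA travels into active dendrites, where its protein promotes the removal of AMPA-type glutamate receptors from the surface. Homer proteins link metabotropic glutamate receptors to calcium release channels and to Shank scaffolds, and the Homer1 locus also gives a short, activity-induced form that loosens these links. The neuronal pentraxins Nptx1 and Nptx2 are secreted proteins that gather AMPA receptors at excitatory synapses, Nptxr is their membrane-anchored relative, and Nptx2 is known to be induced by activity. Dlg4 encodes PSD-95, the major scaffold of the postsynaptic density.

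The values are MAS5 signals, the intensity that the Affymetrix algorithm assigns to a probe set. The arrays had not been brought to a common level. The median signal past the filter was 236 for sham, 219 for ECS, 335 for vehicle and 365 for fluoxetine. Each treated signal was divided by its control signal and put on the log2 scale, and the median of that log2 ratio over the 13422 probe sets was subtracted. These medians were -0.10 for ECS over sham, 0.12 for fluoxetine over vehicle and -0.50 for sham over vehicle. All ratios below are these centred log2 ratios unless stated otherwise. A probe set, or a gene by its brightest probe set, was called higher or lower when the centred signals differed at least 1.5-fold. The control spread given beside a ratio is the scaled median absolute deviation of sham over vehicle among the 500 probe sets nearest in signal. It describes 2 untreated pools that also differed in handling, and is not a replicate error.

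**Figure D1:**
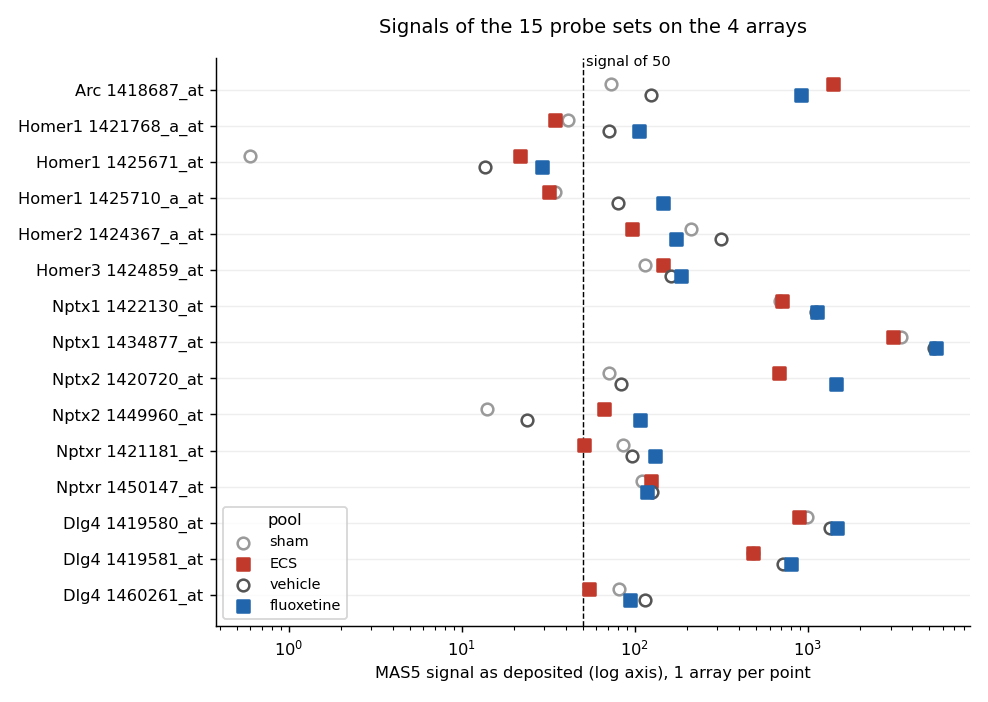
MAS5 signals as deposited (log axis) of the 15 probe sets, 1 array per point, with open circles for the sham and vehicle pools and filled squares for the ECS and fluoxetine pools. Arc and both Nptx2 probe sets have the treated pools to the right of both control pools, and all 4 signals of Homer1 1425671_at lie below the dashed line at 50.

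Arc and Nptx2 were much higher in both treated pools, Homer2 was lower in both, and Nptx1 and the 2 brighter Dlg4 probe sets stayed close to their controls. By the brightest probe set, 2 of the 8 genes (Arc and Nptx2) were higher and 1 (Homer2) was lower with ECS, where 5.15% of the 7935 genes with 1 name were higher and 4.37% lower. With fluoxetine 3 of the 8 (Arc, Nptx2 and Homer1) were higher and 1 (Homer2) was lower, against 5.85% and 5.05% of all genes. Both treatments had Arc and Nptx2 higher and Homer2 lower, while 2.97% of all genes were higher and 1.88% lower with both. None of the 8 was higher in sham than in vehicle and 1 (Homer1) was lower, against 2% and 1.2% of all genes. By probe set, 3 of 14 were higher and 2 lower with ECS (5.09% and 4.37% of the 13422), and 4 were higher and 1 lower with fluoxetine (5.72% and 4.87%). In both comparisons 3 of the 14 were higher (2.76% of all probe sets) and 1 was lower (1.67%). Nptx2 1449960_at, 1 of these 3, passed the filter only through the treated pools, since both of its control signals were below 50. It also counts among the 3 higher with ECS and the 4 higher with fluoxetine. Homer1 1425710_a_at reached the mean of 50 only with its fluoxetine signal of 146.2. Its other signals were 34.7 in the sham pool, 31.7 in the ECS pool and 79.8 in the vehicle pool. This Homer1 probe set counts among the genes and the probe sets higher with fluoxetine. Between the untreated pools, none of the 14 was higher in sham (2.09%) and 1, of Homer1, was lower (1.62%).

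The signal of Arc (1418687_at) was 72.5 in the sham pool and 1388 in the ECS pool, and 124.6 in the vehicle pool and 909.0 in the fluoxetine pool. Both treated signals stood far above both control signals, and all 4 were above 50. Arc was thus 20.5-fold higher with ECS, a log2 ratio of 4.35, and 6.70-fold higher with fluoxetine, a log2 ratio of 2.75. The control spread was 0.16, and the log2 ratio of sham to vehicle was -0.28. This spread belongs to a mean signal of 623.5, which the treated pools raised. For Dlg4 1460261_at, with a mean of 85.85, nearer to the control signals of Arc, the spread was 0.32. With the vehicle pool as the common base, the order from low to high was sham at -0.28, vehicle, fluoxetine at 2.75 and ECS at 4.07. The gap between the 2 control pools was small beside the distance to either treated pool. Among the 7935 genes, Arc had rank 5 from the top with ECS and rank 12 with fluoxetine. The log2 ratio was larger with ECS by 1.61, and by 1.06 with the control arrays exchanged, where it was 4.07 for ECS over vehicle and 3.02 for fluoxetine over sham. This difference was not tested.

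Nptx2, the activity-induced pentraxin also known as Narp, was measured by a pair of probe sets. The brighter one (1420720_at) had signals of 71.0 in the sham pool, 681.7 in the ECS pool, 82.8 in the vehicle pool and 1450 in the fluoxetine pool. Both treated pools lay well above both control pools, at 10.3-fold with ECS and 16.1-fold with fluoxetine. The log2 ratios were 3.36 and 4.01 (control spread 0.17), and that of sham to vehicle was 0.28. As for Arc, this spread belongs to a mean signal raised by the treated pools, here 571.3, and was larger at the level of the control signals. Nptx2 ranked 1 of 7935 genes from the top with fluoxetine and 7 with ECS. Its order over the treatments was thus the opposite of that of Arc. With the vehicle pool as the base, the order from low to high was vehicle, sham at 0.28, ECS at 3.64 and fluoxetine at 4.01. With the control arrays exchanged, the log2 ratios were 3.64 for ECS over vehicle and 3.72 for fluoxetine over sham, so the gap between the treatments was much smaller with that choice of controls. The dimmer probe set (1449960_at) had signals of 14 in the sham pool, 66.6 in the ECS pool, 23.7 in the vehicle pool and 106.5 in the fluoxetine pool. It was higher in both treated pools too, with log2 ratios of 2.35 and 2.05. Both of its control signals were below 50, and with such signals taken as 50 the uncentred log2 ratios were 0.41 and 1.09, the first of them under 1.5-fold.

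Nptx1, the other secreted pentraxin, had no such difference. Its brighter probe set (1434877_at) had signals of 3434 in the sham pool, 3081 in the ECS pool, 5370 in the vehicle pool and 5497 in the fluoxetine pool. Both arrays of each comparison were nearly equal, and the higher level of the vehicle array was mostly removed by centring, which left -0.14 for sham over vehicle. The log2 ratios were -0.06 with ECS and -0.09 with fluoxetine (control spread 0.12). The other probe set (1422130_at), with signals between 684.4 and 1121, had 0.15 and -0.12.

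Nptxr has no probe set of its own on this array in the annotation used. Both of its probe sets are assigned to Nptxr and Npcd, a gene model that the RefSeq table lists as a joined transcript of Cbx6 and Nptxr, so the signals of the pair cannot be told apart. Neither set of signals left the range of 50.9 to 130.1. The brighter probe set (1450147_at) had 109.8 in the sham pool, 123.3 in the ECS pool, 125.3 in the vehicle pool and 117.4 in the fluoxetine pool. Its log2 ratios were 0.26 with ECS and -0.22 with fluoxetine (control spread 0.28). The other (1421181_at) had 85.4 in the sham pool, 50.9 in the ECS pool, 95.8 in the vehicle pool and 130.1 in the fluoxetine pool. It was lower at the size of 1.5-fold with ECS, at -0.65, and had 0.32 with fluoxetine. The 2 probe sets thus had opposite signs in each comparison, and no direction is given for Nptxr.

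**Figure D2:**
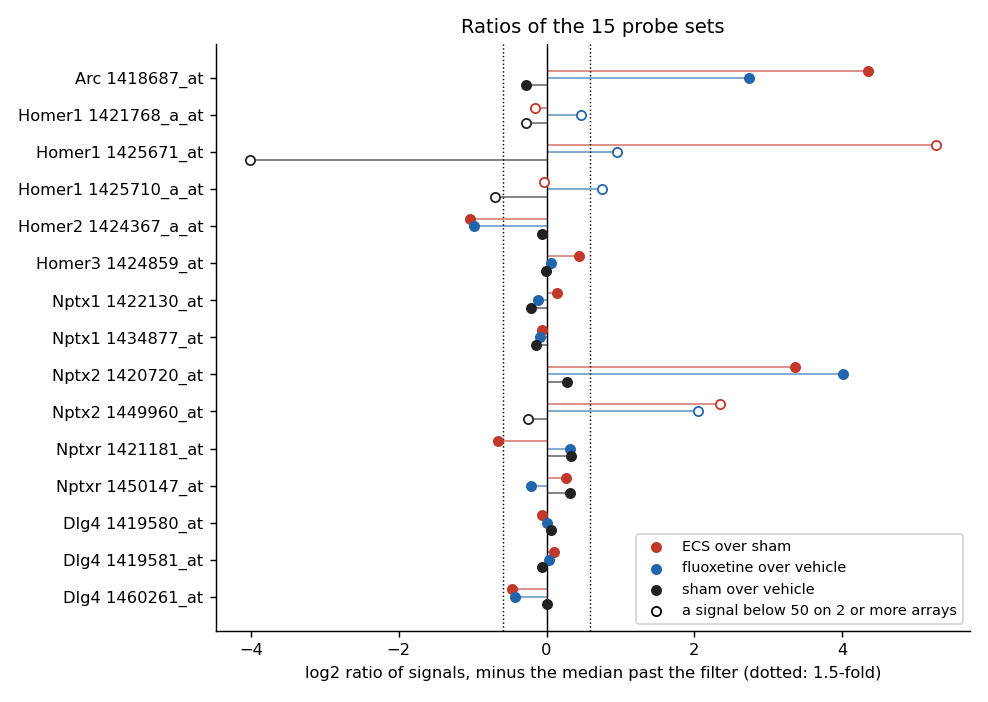
Centred log2 ratios of the 15 probe sets for ECS over sham (red), fluoxetine over vehicle (blue) and sham over vehicle (black), with dotted lines at 1.5-fold and open symbols for probe sets with 2 or more signals below 50. Arc reaches 4.35 and 2.75 and Nptx2 1420720_at 3.36 and 4.01, Homer2 lies near -1 in both treatments, and the long bars of Homer1 1425671_at come from signals of 0.6 to 28.9.

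Within the Homer family the members parted. Homer2 was lower with both treatments, Homer3 was under 1.5-fold in both, and Homer1 was near the limit of measurement. Homer2 (1424367_a_at) had signals of 211.0 in the sham pool, 96.4 in the ECS pool, 313.1 in the vehicle pool and 172.2 in the fluoxetine pool. Each treated signal was below its own control and below both control signals. The log2 ratios were -1.03 with ECS, which is 2.05-fold lower, and -0.98 with fluoxetine, which is 1.98-fold lower. The control spread was 0.23, and the log2 ratio of sham to vehicle was -0.07. With the control arrays exchanged, the log2 ratios were -1.10 and -0.92. Among all genes Homer2 had rank 80 from the bottom with ECS and rank 94 with fluoxetine.

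Homer3 (1424859_at) had signals of 114.4 in the sham pool, 144.8 in the ECS pool, 162.7 in the vehicle pool and 184.8 in the fluoxetine pool. The log2 ratio of 0.44 with ECS was under 1.5-fold (control spread 0.26), and that with fluoxetine was 0.06. Homer1 had 3 probe sets, and the sham and ECS signals were below 50 in all of them. The brightest (1425710_a_at) had 34.7 in the sham pool, 31.7 in the ECS pool, 79.8 in the vehicle pool and 146.2 in the fluoxetine pool. Its ECS ratio was -0.03 and its fluoxetine ratio 0.75 on the log2 scale (control spread 0.36). The sham pool was itself lower than the vehicle pool by a log2 ratio of -0.70, nearly as large as the difference with fluoxetine. The second (1421768_a_at) had 41.1 in the sham pool, 34.6 in the ECS pool, 70.4 in the vehicle pool and 105.5 in the fluoxetine pool, and log2 ratios of -0.15 and 0.46, both under 1.5-fold.

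The remaining Homer1 probe set (1425671_at) did not pass the filter, and its case shows what a low signal does to a ratio. Its signals were 0.6 in the sham pool, 21.7 in the ECS pool, 13.7 in the vehicle pool and 28.9 in the fluoxetine pool. The treated signals were the higher ones, yet all 4 were below 50. The log2 ratio reached 5.27 for ECS, against 0.96 for fluoxetine, while that of sham to vehicle was -4.01. With signals below 50 taken as 50, the uncentred ratio was 0.00 in both comparisons. Of ECS over vehicle in place of sham, the centred log2 ratio was 1.26. No direction for Homer1 with ECS was therefore read from this probe set. The study, in contrast, lists it among the genes most raised by ECS, of those it found significantly changed by both treatments. The value listed there is below 5.27 for ECS and above 0.96 for fluoxetine. The annotation gives each probe set a different source sequence and does not say which Homer1 transcript form each one detects, so the short form was not told apart from the long ones.

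The bases before the transcription start are shown for Homer2, the Homer gene that was lower with both treatments, and for Homer1, known as the activity-induced member of the family. They are from RefSeq on GRCm38.p6. Of the 8 genes, Homer1, Homer2, Homer3 and Dlg4 matched the promoter table, with 8 windows in all. Arc, Nptx1, Nptx2 and Nptxr were not used here. Capitals mark matches on either strand to TGACGT, the core of the cyclic AMP response element (CRE), to the full CRE TGACGTCA, to the AP-1 site TGANTCA, to the EGR site GCGNGGGCG or to the serum response element. The windows run 5′ to 3′ on the strand of the gene and hold 250 bases, chr13:93303507-93303756 on the plus strand for Homer1 and chr7:81706926-81707175 on the minus strand for Homer2.
Homer1: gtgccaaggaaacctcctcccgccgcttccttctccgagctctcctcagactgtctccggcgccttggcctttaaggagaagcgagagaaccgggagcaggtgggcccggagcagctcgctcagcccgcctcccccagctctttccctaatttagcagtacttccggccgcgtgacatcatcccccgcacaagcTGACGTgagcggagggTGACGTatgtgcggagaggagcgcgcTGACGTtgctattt
Homer2: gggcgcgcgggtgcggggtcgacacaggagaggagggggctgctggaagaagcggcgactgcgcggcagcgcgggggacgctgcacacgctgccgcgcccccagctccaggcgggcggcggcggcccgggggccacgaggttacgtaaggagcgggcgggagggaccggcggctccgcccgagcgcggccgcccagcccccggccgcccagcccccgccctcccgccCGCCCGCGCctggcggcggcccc

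The Homer1 window holds the CRE core 3 times, beginning 56, 40 and 14 bases before the start site. At least 1 match was found in 6.47% of 32851 promoter windows of the same length and at least 3 in 0.152%, where a full CRE counts as 2 matches, since it reads as the core on each strand. The Homer2 window has 1 match to the EGR site, 23 bases before the start, as 4.70% of all windows do at least once. Its G and C content was 83.2%, against 62.4% for Homer1 and a median of 52.4% over all windows. The other window of each gene and those of Homer3 and Dlg4 held none of these letters. The full CRE was in 1.55% of all windows, the AP-1 site in 6.75% and the serum response element in 1.47%, and none of these was in a window of the 4 genes. A match is a description of the letters only.

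Dlg4 had 3 probe sets. The brightest (1419580_at) had signals of 983.7 in the sham pool, 884.0 in the ECS pool, 1339 in the vehicle pool and 1467 in the fluoxetine pool. The pools of each comparison were close to each other, with log2 ratios of -0.06 and 0.01 (control spread 0.15). The second (1419581_at), with 482.3 and 482.2 in the sham and ECS pools and 716.1 and 800.3 in the vehicle and fluoxetine pools, had log2 ratios of 0.10 and 0.04. The dimmest (1460261_at), with signals of 54.6 to 114.7, had -0.47 and -0.42 (control spread 0.32), both under 1.5-fold. None of the 3 Dlg4 probe sets was called with either treatment.

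**Figure D3:**
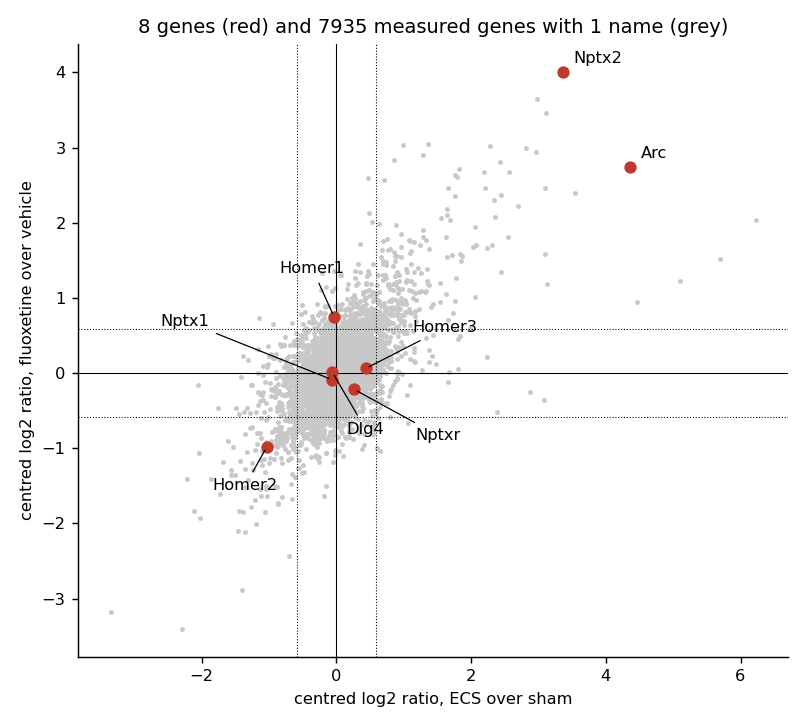
Centred log2 ratio with ECS (horizontal) against that with fluoxetine (vertical) for the brightest probe set of each of the 8 genes (red) and of 7935 genes with 1 name (grey), with dotted lines at 1.5-fold. Nptx2 and Arc lie at the upper right edge, Homer2 lies at -1.03 and -0.98, and Dlg4 and Nptx1 lie near 0 on both axes.

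To see which other genes had a pattern like these, the 4 genes with the smallest distance over the 3 centred log2 ratios (ECS over sham, fluoxetine over vehicle, sham over vehicle) were taken. The ratios share arrays, and the distance is a description. For Homer2 these were Tgfa, a ligand of the EGF receptor, at a distance of 0.08, Gda, the guanine deaminase, at 0.14, Ccdc85a at 0.16 and Ctdspl at 0.17. Tgfa had log2 ratios of -1.04 and -0.92. For Nptx2 the closest was Grp, the gastrin-releasing peptide, at a distance of 0.59, with log2 ratios of 2.97 and 3.64. The neuropeptide genes Npy at 1.16, Penk at 1.23 and Tac2 at 1.46 followed, and the control signals of Tac2 were below 50. For Arc no gene was as close as Grp was to Nptx2. Penk was at 1.41, Npy at 1.67, Fos at 1.70 and Nptx2 itself at 1.70. For Homer1 the list was Med6 at 0.23, Clmp at 0.27, Erbin at 0.33 and Rcor1 at 0.45, all near 0 with ECS. With fluoxetine they had 0.48 to 0.62. Their log2 ratios of sham to vehicle were -0.73, -0.67, -0.51 and -0.32, beside -0.70 for Homer1, so the likeness includes a gap between the untreated pools.

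Genes that act with these proteins, or that belong to the activity response, were described in 7 lists of 102 genes, of which 66 were measured. The activity response makes up 25 of the 66, and the counts of partner genes given later cover all 66. In 4 lists of synaptic partners, 35 genes were measured, and none was higher and 1 was lower with ECS, where 5.15% and 4.37% of all genes were. With fluoxetine 1 was higher and 4 were lower, against 5.85% and 5.05%. Their medians were 0.15 and 0.02, against 0.00 over all genes in each comparison. Only 6 of the 14 listed Homer partners were measured, so these counts do not cover the rest. The calcium release channel gene Itpr1 was not 1 of the 6. The study lists Itpr1 among the genes most lowered by ECS, of those changed by both treatments. Of the measured synaptic partners, the 1 lower with both was Ryr1, a calcium release channel, with log2 ratios of -0.87 and -1.73. Its signals were 105.5 in the sham pool, 54.1 in the ECS pool, 136.7 in the vehicle pool and 44.7 in the fluoxetine pool. Grip1, which anchors AMPA receptors, was the 1 that was higher with fluoxetine, at 0.93, and had 0.22 with ECS. Called lower with fluoxetine and not with ECS were Sh3gl1, an endophilin that binds Arc, at -0.87, Lgi1, a secreted partner of the PSD-95 complex, at -0.61, and Trpc1, a cation channel that binds Homer, at -0.61. The calls of Lgi1 and Trpc1 ended without centring, where both log2 ratios were -0.49. For Sh3gl1 the sham pool was itself lower than the vehicle pool, at -0.47. Its log2 ratio with ECS exceeded that with fluoxetine by 0.72, and this difference became -0.22 with the control arrays exchanged. Of the 10 measured AMPA receptor and auxiliary genes, none was called with ECS. Gria1, the subunit GluA1, had -0.36 and -0.45, at signals of 3184 in the sham pool, 2316 in the ECS pool, 4477 in the vehicle pool and 3560 in the fluoxetine pool. Among 6 measured pentraxin relatives and partners, Ptx3, a long pentraxin of innate immunity, was higher with both, at 1.01 and 0.78, although its sham signal of 38.9 was below 50.

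Of the 25 measured genes of the activity response, 16 were higher with ECS and 15 with fluoxetine, where 5.15% and 5.85% of all genes were. In the effector list 7 of 11 passed 1.5-fold upward with ECS and 8 did so with fluoxetine, with medians of 1.17 and 0.95. Of 14 transcription factors, 9 passed upward with ECS and 7 with fluoxetine, with medians of 2.66 and 0.72. Among these were Fosb, Egr2 and Atf3, which passed the signal filter only through the treated pools, since both of their control signals were below 50. Without these 3, a choice made after seeing the data, 6 of 11 were higher with ECS and 4 with fluoxetine, with medians of 1.84 and 0.37. Together 14 of the 25 were higher with both treatments, where 2.97% of all genes were, and none was lower with either. Fosb, Egr2 and Atf3 are among these 14 and among the 16 and 15 above. Without them, 7 of the 11 effector genes and 4 of the other 11 transcription factors were higher with both. The lists were chosen with earlier results of these data known, so the contrast with all genes is a description only. Gadd45b, which acts in DNA demethylation and stress responses, had log2 ratios of 2.45 and 2.37, and Inhba, the activin subunit, 2.08 and 1.71. Bdnf, the brain-derived neurotrophic factor, had 1.87 and 1.56. Ptgs2, the inducible cyclooxygenase, had 3.13 and 1.18, and the transcription factors Fos and Nr4a1 had 5.10 and 1.22, and 4.46 and 0.94. Effector genes near 0 included Nptn, the adhesion protein neuroplastin, at 0.11 and -0.14.

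**Figure D4:**
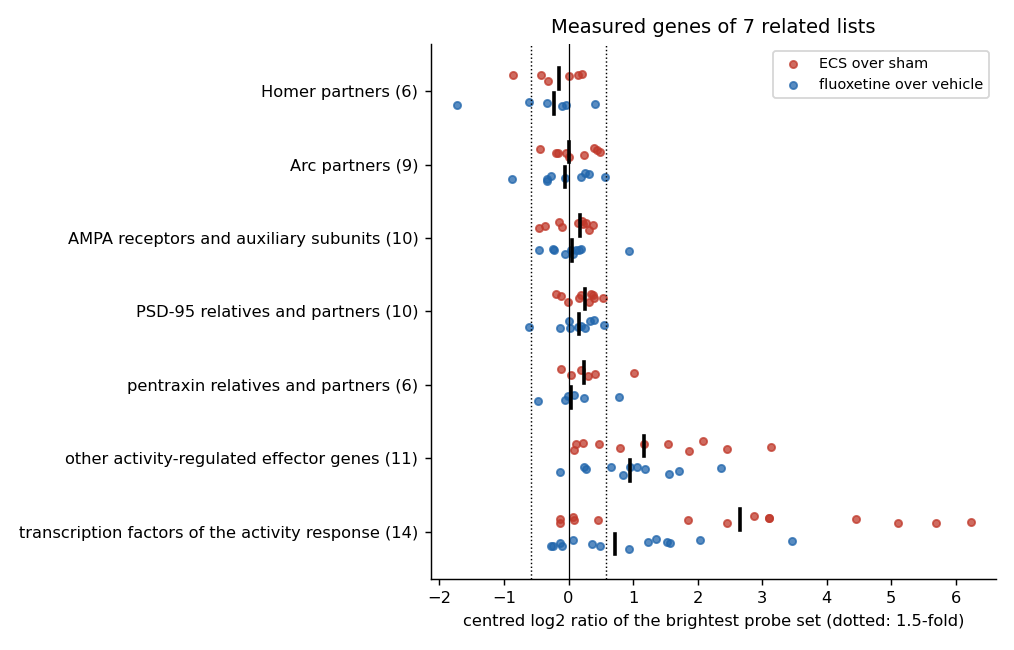
Centred log2 ratios of the brightest probe set of each measured gene in 7 related lists, with ECS (red) and fluoxetine (blue), list medians as black bars, dotted lines at 1.5-fold and the number of genes in parentheses. The 4 lists of synaptic partners lie mostly within 1.5-fold, whereas the transcription factor list reaches 6.23 with ECS, for Fosb, whose control signals were below 50.

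The tissue was a dissected region with several cell types, and in such pools fewer cells of a type and less RNA per cell cannot be told apart. As a check of the DG label, Prox1, the fate determinant of GCs, had signals of 98.3 to 179.7. Its log2 ratios were -0.10 with ECS and 0.10 with fluoxetine, both under 1.5-fold. The other 3 of 4 measured GC markers (Calb1, Dsp and Tdo2) were lower with each treatment, where 4.37% and 5.05% of all genes were. The summed signal of the 4 was 5907 in the sham pool, 2472 in the ECS pool, 8827 in the vehicle pool and 2678 in the fluoxetine pool. The centred log2 ratios of these sums were -1.16 and -1.84. Calb1, at 3814 the largest part of the sham sum and with -1.35 and -2.12, weighed most in them, and Prox1 weighed little. Of 5 markers of newborn neurons, 4 passed 1.5-fold upward with ECS and 3 with fluoxetine, where 5.15% and 5.85% of all genes did. Their summed signals, in the same order of pools, were 2397, 2784, 3107 and 4565, with log2 ratios of 0.31 and 0.43. Neurod1, at 1513 the largest part of the sham sum and with -0.17 in both comparisons, weighed most in these sums, and the medians over the 5 markers were 0.92 and 0.85.

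The marker counts that follow stand beside 5.15% of all genes higher with ECS and 5.85% with fluoxetine. Of 8 interneuron markers 1 was higher with ECS and 2 with fluoxetine, and their sum had log2 ratios of 0.06 and 0.05. Of 5 astrocyte markers 1 and 2 were higher, among them Gfap, the intermediate filament of astrocytes, at 2.34 and 2.30, and the sum had 0.07 and 0.21. The sum of 2 pyramidal cell markers had 0.64 and 0.48, but the 2 markers parted. Bok was higher with both treatments, at 0.92 and 0.73, whereas Wfs1 had -0.29 and -0.26. The sums of the other lists had 0.00 and 0.35 for microglia, 0.11 and 0.05 for oligodendrocytes and 0.17 and 0.11 for endothelial cells, with no marker called with ECS and 1 higher with fluoxetine in the microglial and in the endothelial list. The part of these cell types in the values of Arc, Nptx2 and Homer2 was not tested.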

How the data were processed

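Dentate gyrus RNA was pooled by group, amplified and hybridized to 1 array per pool, 4 arrays in all. The deposited values are linear signal intensities that the authors computed with MAS5, an algorithm that merges matched and mismatched probes into 1 value. Target scaling is not given in the sources used here. Genes came from the platform annotation. Of the probe sets other than the 64 controls, 20380 have 1 gene, 691 several and 1555 none.

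Ratios were computed with Python 3.11.15, numpy 2.4.6 and pandas 2.3.3, and figures were drawn in matplotlib 3.10.9. To allow logarithms, 0.1 replaced a signal of 0. The filter dropped controls and any probe set whose signal averaged under 50, and log2 ratios were centred on their median. A gene stood by its brightest probe set. With 1 array per group no test was run, and the number of arrays limits the precision. The members and lists were chosen with earlier results of these data known. From each list, the genes with the highest and lowest summed ratio and those called the same way in both comparisons could be named. Trpc1 was chosen after its values were seen. The steps were tested on simulated data. Alternatives were other scalings, filters, floors, sizes, probe set summaries and exchanged controls.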

Additional observations from a re-analysis of the deposited data

How the results depend on the processing

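No paired analysis was possible because each group has 1 array. Of the counts and list medians recomputed under the alternatives, 1 of them (without the 3 partner genes below 50 in both controls) chosen after seeing the data, 95 stayed within 1.5 times the value above (or within the spread between the control arrays) and 17 did not, and no called member ratio changed sign. Arc kept log2 ratios of 4.07 to 4.37 with ECS and 2.60 to 3.02 with fluoxetine, Nptx2 (1420720_at) 3.09 to 3.64 and 3.72 to 4.13, and Homer2 -1.13 to -0.926 and -0.995 to -0.863. Homer2 and Ryr1 did not pass a mean signal of 200, which left 0 member genes lower with either treatment and 0 partner genes lower with ECS. At 2-fold, 0 member genes were lower with fluoxetine, no partner gene (0) passed downward with ECS, and the fluoxetine counts of partner genes were 11 higher and 1 lower. At 1.2-fold, 4 member genes were higher with ECS, the ECS counts of partner genes were 32 higher and 6 lower, and the fluoxetine counts 26 and 11. Nptxr, whose probe sets had opposite signs, was 1 of these 4 and only just passed, at 0.26. The shares of all genes were computed for the main setting only, and not at 2-fold, at 1.2-fold or under the other filters, scalings and controls. The counts in this paragraph therefore have no background beside them. Without centring, 2 partner genes were lower with fluoxetine (Lgi1 and Trpc1 no longer passed), and without a signal filter 5 were lower with ECS and 8 with fluoxetine. With the control arrays exchanged, 2 member genes (Homer1 beside Homer2) and 2 partner genes were lower with ECS. Signals below 50 were found in all 3 Homer1 probe sets and in the dimmer one of Nptx2, which limits their ratios.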

Other observations

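Arc and Nptx2 can be set beside the activity genes that were higher with both treatments by how far the log2 ratio with ECS exceeded that with fluoxetine. The difference was 1.61 for Arc and -0.65 for Nptx2, and with the control arrays exchanged it was 1.06 and -0.08. Of 7 transcription factors, Fosb, Egr2 and Atf3 had both control signals below 50 and differences of 4.20, 4.17 and -0.35, which became 1.76, 3.22 and 1.02 with signals below 50 taken as 50. The other 4 had a median difference of 2.52 and a lowest of 1.10, with 3.88 for Fos and 3.51 for Nr4a1. Over the 7 effector genes the median was 0.31, from -0.05 for Pcdh8, a protocadherin, to 1.95 for Ptgs2, with 0.08 for Gadd45b and 0.10 for Rgs2, a regulator of G protein signalling. With the control arrays exchanged the effector median was -0.23, so its sign depends on which control is used. These differences rest on 4 pools and were not tested.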
